A study of Homo sapiens with 27 samples.

Results

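The genes that make, receive and restrain WNT signals were examined in U2OS cells, a human osteosarcoma line, with or without short hairpin RNAs against the protease gene MMP2. The members were all count-table symbols that name a WNT ligand, a Frizzled receptor, LRP5 or LRP6, a secreted Frizzled-related protein, a Dickkopf protein, WIF1, an R-spondin, LGR4 or LGR5, ROR1 or ROR2, or AXIN2, LEF1 and TCF7, and antisense genes were left out. This gave 51 of the 55882 symbols in the tables: 19 ligands, 10 Frizzled receptors, 2 LRP co-receptors, 4 LGR and ROR receptors, 4 R-spondins, 9 secreted antagonists and 3 feedback or nuclear genes. No symbol SFRP3 was matched, and the gene also known by that name, FRZB, is no member.

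WNT ligands are secreted lipid-modified glycoproteins that bind Frizzled receptors, together with LRP5 or LRP6 when the signal is to stabilise β-catenin, or with ROR1 or ROR2 in pathways that do not use β-catenin. R-spondins bind LGR4 and LGR5 and remove the ubiquitin ligases that clear Frizzled from the membrane, while SFRP and WIF1 proteins bind ligands and several Dickkopf proteins block the LRP co-receptors. In bone, WNT signalling drives osteoblast formation, and its secreted antagonists limit bone mass.

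By the study's description, all cells were puromycin-selected, stably transduced U2OS lines grown in DMEM with 10% fetal bovine serum. The control carried the blank pLKO.1 vector, and MMP2sh1 and MMP2sh2 each carried a different pLKO.1 hairpin against MMP2. The sample labels, however, name the control U2OS WT and do not say that it was transduced. Each genotype was 1 line, so an effect of a hairpin cannot be told apart from other differences between the lines. Cells were plated at 30% confluence and poly(A) RNA was collected from subconfluent cells at day −2, from confluent cells at day 0 and from overconfluent cells at day 2, with 3 replicates in each of the 9 groups (27 libraries), which the study describes as independent biological replicates. The change from subconfluent to overconfluent is called expansion here.

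Libraries held 33580129 to 59374327 reads on genes (median 40075178). MMP2 itself was at 232 ± 14.2, 325 ± 6.97 and 489.5 ± 8.50 CPM (counts per 1e6 reads on genes, SD, n = 3) in subconfluent, confluent and overconfluent control cells. It was at 40.1 ± 6.45, 59.1 ± 6.54 and 97.1 ± 3.15 CPM in MMP2sh1 and at 143.6 ± 10.4, 157.7 ± 3.28 and 278 ± 12.4 CPM in MMP2sh2, below every control library of the same density. The 9 mesenchymal and osteoblast markers examined summed to 3620 to 7980 CPM per library, and those of epithelial, haematopoietic, endothelial and neural cells to at most 18.8, 1.68, 5.02 and 22.6 CPM. The 27 pairs of replicates of one group differed by more than sampling noise (chi-square per degree of freedom 4.74 to 24.6), so none was treated as a repeat deposit of 1 library.

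The 250 bases upstream of the transcription start are shown first for 3 of the members described below. WNT6 and WNT10A are neighbours on chromosome 2 that changed in opposite directions during expansion, and RSPO3 had the largest of the called differences in expansion between a hairpin line and control. The sequences run 5′ to 3′ on the gene's strand in GRCh37, the build named hg19 for the counts, and capitals mark the 5-letter core of the TCF/LEF binding motif, CTTTG or its complement CAAAG. WNT6 lies at chr2:219724528-219738955 and its upstream window at chr2:219724278-219724527 (plus strand), WNT10A at chr2:219745574-219764303 with its window at chr2:219745324-219745573 (plus strand), and RSPO3 at chr6:127439816-127520626 with its window at chr6:127439566-127439815 (plus strand).
WNT6: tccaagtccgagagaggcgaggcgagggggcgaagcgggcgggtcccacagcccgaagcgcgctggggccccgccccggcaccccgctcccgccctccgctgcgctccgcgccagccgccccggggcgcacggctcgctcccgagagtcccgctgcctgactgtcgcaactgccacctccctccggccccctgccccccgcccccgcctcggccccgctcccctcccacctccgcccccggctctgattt
WNT10A: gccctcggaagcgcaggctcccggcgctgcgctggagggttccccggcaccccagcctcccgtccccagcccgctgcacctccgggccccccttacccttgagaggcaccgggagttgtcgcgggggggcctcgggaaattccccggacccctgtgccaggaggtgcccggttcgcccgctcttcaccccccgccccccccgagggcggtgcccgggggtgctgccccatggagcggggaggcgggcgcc
RSPO3: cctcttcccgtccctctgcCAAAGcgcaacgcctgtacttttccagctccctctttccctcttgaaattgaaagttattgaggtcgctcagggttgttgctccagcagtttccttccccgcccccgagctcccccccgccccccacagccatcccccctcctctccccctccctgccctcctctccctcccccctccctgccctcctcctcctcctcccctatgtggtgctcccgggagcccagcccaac
None of these 3 windows overlaps an annotated exon, and those of WNT6 and WNT10A hold no such core. The core was searched on both strands and is contained in the longer motif CTTTGAT, so the searches overlap. It was found in the windows of 14 of the 51 members (27.5%), RSPO3 among them, and in 36.8% of the windows of 19867 protein-coding genes. CTTTGAT itself was in the window of DKK4 alone among the members (1.96%) and in 1.72% of all windows. The members' windows had a median GC content of 71.6%, against 63.2% for all genes, and those of WNT6 (79.2%) and WNT10A (77.6%) were at the 93.5th and 90.5th percentile of all genes.

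U2OS cells transcribed many members at measurable levels, but not all. After the filter on low counts, 39 of the 51 members were tested in at least 1 of the 16 comparisons and 36 in all of them. The 12 that were never tested had fewer than 100 reads over the 27 libraries together: the ligands WNT1, WNT2, WNT8A, WNT8B, WNT9B and WNT16, the antagonists DKK1, DKK4, SFRP2, SFRP5 and WIF1, and RSPO2. WNT9B had no read. Its outermost annotated end lies 46 bp from that of WNT3 on the other strand. The windows upstream of their canonical transcripts lie further apart, at chr17:44928699-44928948 for WNT9B and chr17:44896059-44896308 for WNT3. In a single library, 3 reads amounted to 0.0496 to 0.0891 CPM, and levels near or below this rest on very few reads. The 12 genes were left untested by the filter, not for lack of any read, and DKK1 reached 25 reads in a library. The counting interval given for FZD10 covers counting error only.

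Levels were compared between genes as CPM per kb of exon. Averaged over the 27 libraries, the highest member was FZD2 at 20.6, followed by the antagonist DKK3 at 20.3, FZD6 at 18.5, LRP6 at 14.1 and SFRP1 at 12.9. Of the annotated exon bases of DKK3, 47.5% are shared with USP47, and reads on shared bases were discarded in the counting, so its level is uncertain. By the same average, the other leading members of their classes were RSPO4 (7.999), ROR1 (7.36), WNT6 (6.33) and LEF1 (6.16). The order changed with density: in overconfluent control cells FZD6 (19.4) was above FZD2 (17.5), in subconfluent and confluent control cells LGR4 (4.32 and 9.09) was above ROR1 (2.62 and 7.61), and in subconfluent control cells AXIN2 (3.79) was above LEF1 (3.41). In bulk RNA, fewer cells that express a gene and less RNA per cell cannot be told apart.

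Several ligands were transcribed at similar levels in subconfluent control cells. WNT6, a ligand of the β-catenin pathway in many epithelia, made up 18.7% ± 2.22 (SD, n = 3) of the summed ligand level per kb, followed by WNT3A (13.4% ± 0.940), WNT5B (13.0% ± 0.922), WNT5A (12.8% ± 0.685) and WNT10B (12.2% ± 2.44). WNT6 was above the others in every library, and the other 4 overlapped between libraries. In overconfluent control cells WNT6 rose to 38.7% ± 3.57, with WNT3A next at 13.8% ± 1.09 and WNT5B at 5.33% ± 0.360. The summed ligand level was 26.6, 28.8 and 28.0 CPM per kb in the subconfluent control libraries and 22.3, 22.9 and 22.5 in the overconfluent ones. WNT6 was also the leading ligand per kb of overconfluent MMP2sh1 (34.4% ± 1.46) and MMP2sh2 cells (40.5% ± 2.03). The ranking depends on the exon lengths used, 1719 bp for WNT6, 7153 for WNT5A and 5391 for WNT3. Without division by length, the means over the 27 libraries were 10.9, 21.8 and 13.6 CPM.

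**Figure D1:**
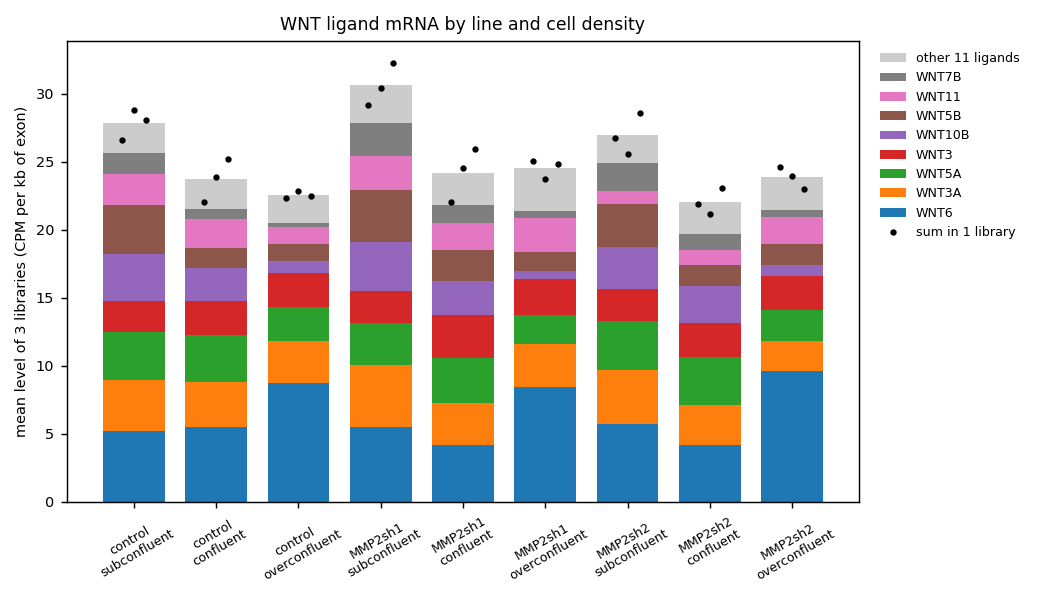
Stacked bars give the mean level of each WNT ligand in CPM per kb of exon (vertical axis, from 0) for the 9 groups of line and density (horizontal axis, 3 libraries each), and dots give the summed level in each library. The WNT6 share is the bottom segment, and in control cells it grew from 18.7% of the sum when subconfluent to 38.7% when overconfluent.

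Expansion of control cells changed the ligands unequally. Of 13 ligands tested, 2 rose and 6 fell from subconfluent to overconfluent cells, and 5 did not pass the test. Over all classes, 31 of the 39 tested members were called, 16 higher and 15 lower, in a comparison in which 56.8% of all 19099 tested genes were called, 28.1% higher and 28.6% lower. The median log2 fold change of the tested members was 0.09 and that of all tested genes 0.03. A gene was called when its p from the quasi-likelihood test of edgeR, adjusted over all tested genes by the Benjamini-Hochberg method, was under 0.05, and every adjusted p given here comes from that test.

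Among the ligands, WNT7B, WNT10B and WNT5B fell the most. WNT7B, a ligand known from osteoblast and lung development, was at 8.17, 8.27 and 7.37 CPM in the 3 subconfluent control libraries, 3.83, 3.14 and 4.58 in the confluent ones and 1.504, 1.62 and 1.77 in the overconfluent ones. Every library of a denser stage lay below every library of the stage before (expansion log2 fold change −2.27, SE 0.17, adjusted p = 1.3e-11). WNT10B, a bone-forming ligand, was at 6.82, 11.04 and 8.78 CPM, then 5.43, 5.44 and 8.31 and then 2.47, 2.31 and 2.08. The overconfluent libraries were the lowest, and the first 2 stages overlapped. The fall to overconfluence was called (log2 fold change −1.95, SE 0.18, adjusted p = 6.3e-10). At confluence WNT10B was called lower with a log2 fold change of −0.47, and WNT10B lost this call without control subconfluent replicate 2, control confluent replicate 1 or control confluent replicate 2 (log2 fold change −0.70 to −0.27 over the 6 refits).

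WNT5B, a ligand of pathways that do not use β-catenin, fell earlier. Its levels were 14.8, 16.9 and 14.3 CPM when subconfluent, 5.37, 6.12 and 6.73 when confluent and 4.83, 4.98 and 5.47 when overconfluent, so most of its fall preceded confluence (log2 fold change −1.33 to confluence, SE 0.12, adjusted p = 8.5e-10). From confluence to overconfluence its change was not called (−0.23, SE 0.15, adjusted p = 0.26), and the libraries of these stages overlapped. The related WNT5A changed later, from 24.3, 26.3 and 24.6 CPM at confluence to 21.2, 16.1 and 15.4 at overconfluence (log2 fold change −0.50, SE 0.099, adjusted p = 0.00013), and its confluent and subconfluent libraries overlapped.

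WNT2B and WNT6 rose. WNT2B, whose product acts through β-catenin, was at 3.44, 3.96 and 2.81 CPM, then 4.79, 5.01 and 5.43 and then 6.898, 6.11 and 7.55 (log2 fold change 1.01, SE 0.17, adjusted p = 1.1e-05), with no overlap between successive stages, although 21.5% of its exon bases are shared with ST7L. To confluence, WNT2B lost this call without control subconfluent replicate 3 (log2 fold change 0.46 to 0.70 over the 6 refits). From there to overconfluence, WNT2B lost this call without control confluent replicate 1 or control overconfluent replicate 3 (log2 fold change 0.38 to 0.54 over the 6 refits). WNT6 was at 8.29, 8.36 and 10.2 CPM when subconfluent, 9.03, 10.9 and 8.24 when confluent and 13.3, 16.2 and 15.6 when overconfluent. Its first 2 stages overlapped, and the rise came after confluence (log2 fold change 0.70, SE 0.12, adjusted p = 1.2e-05). WNT10A, which lies 6618 bp downstream of WNT6 on the same strand, went from 2.46, 2.04 and 1.81 CPM in subconfluent to 1.02, 1.30 and 1.16 in overconfluent cells (log2 fold change −0.85, SE 0.29, adjusted p = 0.014). WNT10A lost this call without control subconfluent replicate 1 (log2 fold change −0.95 to −0.72 over the 6 refits). In MMP2sh1 and MMP2sh2 the same pair also moved apart, with WNT6 at 0.62 and 0.77 and WNT10A at −1.27 and −1.04.

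Among the R-spondins, RSPO4 was the most abundant and fell slightly, while RSPO3, at a lower level, rose. Of 3 R-spondins tested, 1 was called higher and 1 lower, and RSPO1 did not pass the test. RSPO3 was at 0.6405, 0.616 and 0.819 CPM in subconfluent, 4.57, 3.48 and 2.92 in confluent and 3.89, 2.77 and 4.19 in overconfluent control cells. Both denser stages lay above all subconfluent libraries and overlapped each other (to confluence, log2 fold change 2.42, SE 0.28, adjusted p = 7.4e-08). RSPO4 was at 21.7, 21.7 and 21.3 CPM, then 17.3, 16.8 and 17.1 and then 18.9, 17.4 and 19.4. It was called lower in expansion (log2 fold change −0.21, SE 0.084, adjusted p = 0.034), and RSPO4 lost this call without control subconfluent replicate 1, control subconfluent replicate 2 or control overconfluent replicate 2 (log2 fold change −0.24 to −0.17 over the 6 refits). Without a filter on low counts this RSPO4 call was lost as well. Of RSPO3's exon bases, 15.7% are shared with another annotated gene.

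The makeup of the Frizzled family shifted during expansion. Its summed level was 66.5 ± 3.21 CPM per kb in subconfluent and 68.8 ± 1.05 in overconfluent control cells (SD, n = 3). FZD2 supplied 35.1% ± 0.897 of this in subconfluent and 25.4% ± 0.476 in overconfluent cells, and FZD7 10.9% ± 0.730 and 19.8% ± 0.711. Of 10 receptors tested, 5 were called higher and 3 lower.

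FZD7, a receptor used by stem and tumour cells, was at 29.6, 33.04 and 37.1 CPM, then 43.4, 43.2 and 47.1 and then 62.5, 59.4 and 65.6, a rise at each stage with no overlap (log2 fold change 0.92, SE 0.072, adjusted p = 2e-11). FZD4, the receptor for norrin as well as WNT proteins, was at 35.5, 36.8 and 35.2 CPM, then 34.2, 31.4 and 29.6 and then 20.5, 21.2 and 20.1. It fell after confluence (log2 fold change −0.60, SE 0.079, adjusted p = 2.4e-07), whereas its change to confluence was not called (−0.17, SE 0.070, adjusted p = 0.062). Of its exon bases, 18.9% are shared with PRSS23. FZD2 was at 84.9, 84.6 and 95.1 CPM when subconfluent and 64.5, 64.97 and 68.5 when overconfluent (log2 fold change −0.41, SE 0.058, adjusted p = 8e-07). Also called were FZD8 (0.69), FZD3 (0.46) and FZD6 (0.15), which rose, and FZD5 (−0.26), which fell. In this comparison FZD5 lost this call without control subconfluent replicate 2 (log2 fold change −0.28 to −0.23 over the 6 refits) and FZD6 lost this call without control subconfluent replicate 1, control subconfluent replicate 2 or control overconfluent replicate 1 (log2 fold change 0.12 to 0.18 over the 6 refits). The FZD6 call was also lost in a fit of all 27 libraries. FZD1 (0.09, adjusted p = 0.24) and FZD9 (−0.12, adjusted p = 0.78) did not pass. FZD10 was called higher as well (log2 fold change 5.44) but was all but absent before confluence. It had 1 read in the 3 subconfluent control libraries together and 52 in the overconfluent ones (16 to 19 per library). The depth-adjusted ratio was 59.5, with an exact 95% counting interval of 10.2 to 2394. The corresponding reads were 1 and 37 in MMP2sh1 and 7 and 77 in MMP2sh2.

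The co-receptors moved in opposite directions. LRP6 was at 160.3, 154 and 165 CPM in subconfluent, 155, 169 and 155 in confluent and 133, 125 and 116 in overconfluent control cells, and its overconfluent libraries were the lowest (log2 fold change −0.35, SE 0.053, adjusted p = 2.1e-06). LRP5, a co-receptor in which mutations alter human bone mass, was at 32.9, 35.7 and 37.03 CPM when subconfluent and at 45.5, 47.5 and 44.3 when overconfluent (log2 fold change 0.39, SE 0.066, adjusted p = 1.6e-05).

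LGR4 and LGR5, the R-spondin receptors, peaked at confluence in all 3 lines. In control cells LGR4 was at 28.4, 25.1 and 28.8 CPM when subconfluent, 61.1, 57.1 and 54.98 when confluent and 14.8, 12.2 and 10.7 when overconfluent. It rose to confluence (log2 fold change 1.08, SE 0.068, adjusted p = 9.6e-13) and then fell below its starting level (log2 fold change −2.19, SE 0.088, adjusted p = 1.4e-18). The confluent libraries lay above all others and the overconfluent ones below all others.

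LGR5, a marker of intestinal stem cells and a WNT target, followed the same course at a lower level, with 4.14, 3.32 and 3.42 CPM, then 5.04, 5.01 and 5.80 and then 0.653, 0.932 and 1.02. The fall after confluence was called (log2 fold change −2.57, SE 0.23, adjusted p = 1.8e-10). The rise to confluence of LGR5 was called as well (log2 fold change 0.54, SE 0.17, adjusted p = 0.014), but LGR5 lost this call without control subconfluent replicate 2 or control confluent replicate 3 (log2 fold change 0.47 to 0.65 over the 6 refits), and it was not called in a fit of all 27 libraries. Over expansion as a whole LGR5 was called lower in control (−2.05), MMP2sh1 (−1.93) and MMP2sh2 (−1.70).

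ROR1, a receptor for WNT5A that signals without β-catenin and is often found on tumour cells, rose without a peak. Its levels in control cells were 16.3, 18.4 and 18.1 CPM, then 49.1, 53.2 and 51.05 and then 85.1, 79.1 and 69.3. Each stage lay above the one before, and the expansion was called (log2 fold change 2.15, SE 0.075, adjusted p = 9.7e-19). ROR2, its paralogue, went from 15.3, 18.97 and 20.1 CPM in subconfluent to 25.04, 24.8 and 26.2 in overconfluent control cells (log2 fold change 0.50, SE 0.093, adjusted p = 5.1e-05).

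Of the secreted antagonists, 4 were abundant enough to test, and in control expansion 2 rose and 2 fell. SFRP1 was at 64.4, 63.1 and 61.1 CPM, then 87.8, 79.7 and 83.4 and then 79.1, 79.9 and 77.98, so that both denser stages lay above the subconfluent libraries (log2 fold change 0.33, SE 0.053, adjusted p = 6.2e-06). DKK3, a member of the Dickkopf family that does not act on LRP co-receptors in the same way as the others, was at 249.7, 259.9 and 258 CPM, then 255, 242 and 251 and then 205, 203 and 207 (log2 fold change −0.31, SE 0.045, adjusted p = 1.1e-06). SFRP4, at a low level, was at 2.302, 2.18 and 1.55 CPM when subconfluent and 0.852, 0.5398 and 0.556 when overconfluent (log2 fold change −1.64, SE 0.34, adjusted p = 0.00018).

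DKK2, an LRP antagonist, had 1 to 8 reads per library in subconfluent control cells. It was at 0.139, 0.0711 and 0.0293 CPM there, at 0.6496, 0.0645 and 0.3899 in confluent and at 1.73, 1.30 and 1.96 in overconfluent cells. All overconfluent libraries lay above all others (log2 fold change 4.22, SE 0.54, adjusted p = 1.7e-07), and the subconfluent level rests on few reads. Without control subconfluent replicate 1 the log2 fold change of DKK2 was 4.92, and the other refits gave 3.91 to 4.38. DKK2 was also called higher in the expansion of MMP2sh1 (2.25) and MMP2sh2 (3.61, or 4.29 without MMP2sh2 subconfluent replicate 1).

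The 3 feedback and nuclear members rose in control expansion. Of these, LEF1 alone was also called in the expansion of MMP2sh1 (1.80) and MMP2sh2 (1.28). LEF1, a transcription factor that carries β-catenin to DNA and is itself a WNT target, was at 17.7, 19.1 and 18.1 CPM, then 23.4, 21.6 and 26.2 and then 64.3, 64.5 and 75.4. Its main rise came after confluence (log2 fold change 1.54, SE 0.075, adjusted p = 9.8e-17), with every overconfluent library above every other. TCF7, a related factor, was at 0.225, 0.450 and 0.439 CPM when subconfluent and 0.738, 1.202 and 1.19 when overconfluent (log2 fold change 1.52, SE 0.49, adjusted p = 0.0096). AXIN2, the general feedback inhibitor of β-catenin signalling, changed least, from 18.8, 18.6 and 21.7 to 24.6, 28.1 and 23.9 CPM (log2 fold change 0.39, SE 0.087, adjusted p = 0.00048), and 25.3% of its exon bases are shared with another annotated gene. Its mean went from 19.5 to 21.5 CPM in MMP2sh1 and from 19.8 to 21.5 in MMP2sh2, and neither change was called.

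Split at confluence, more members were called in the second interval than in the first. From subconfluent to confluent cells 13 of 37 tested members were called, 9 higher and 4 lower, where 35.5% of all genes were called (16.4% higher, 19.1% lower). From confluent to overconfluent cells 24 of 39 were called, 12 higher and 12 lower, where 41.4% of all genes were called (21.3% higher, 20.1% lower).

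The same comparison was made within the hairpin lines, in libraries that the control comparison does not use. In MMP2sh1, 27 of 37 tested members were called, 11 higher and 16 lower, against 54.9% of all genes (27.3% higher, 27.7% lower). In MMP2sh2, 29 of 39 were called, 13 higher and 16 lower, against 54.7% of all genes (27.7% higher, 27.1% lower). Of the 37 members tested in all 3 lines, 10 were called higher in each (DKK2, FZD3, FZD6, FZD7, FZD8, LEF1, LRP5, ROR1, WNT2B and WNT6) and 13 lower in each (DKK3, FZD2, FZD4, FZD5, LGR4, LGR5, LRP6, RSPO4, WNT10A, WNT10B, WNT5A, WNT5B and WNT7B). Of the 18164 genes tested in all 3 lines, 19.4% were called higher in each and 21.6% lower in each. AXIN2, ROR2, RSPO3, SFRP1 and TCF7 were called in control expansion but in neither hairpin line. SFRP1 changed by −0.13 in MMP2sh1 and −0.02 in MMP2sh2, against 0.33 in control, and RSPO3 by 0.38 in MMP2sh2, against 2.40. For AXIN2, ROR2 and TCF7 the difference from control expansion was not called in either line. Some of the calls shared by the 3 lines were lost when 1 library was left out. In MMP2sh1, FZD3 lost this call without MMP2sh1 subconfluent replicate 3, MMP2sh1 overconfluent replicate 2 or MMP2sh1 overconfluent replicate 3 (log2 fold change 0.20 to 0.43 over the 6 refits). In MMP2sh2, FZD6 lost this call without MMP2sh2 subconfluent replicate 1 or MMP2sh2 subconfluent replicate 3 (log2 fold change 0.11 to 0.27 over the 6 refits), FZD8 lost this call without MMP2sh2 subconfluent replicate 1, MMP2sh2 subconfluent replicate 2 or MMP2sh2 overconfluent replicate 2 (log2 fold change 0.25 to 0.47 over the 6 refits) and RSPO4 lost this call without MMP2sh2 subconfluent replicate 3 or MMP2sh2 overconfluent replicate 3 (log2 fold change −0.43 to −0.24 over the 6 refits).

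WNT11, a ligand that acts mainly without β-catenin, was the 1 member called with opposite signs. It fell in control cells (log2 fold change −0.84, SE 0.19, adjusted p = 0.00045) and rose in MMP2sh2 (log2 fold change 1.05, SE 0.21, adjusted p = 8e-05), while in MMP2sh1 its change was −0.05 (SE 0.17, adjusted p = 0.82). Of its exon bases, 8.60% are shared with another annotated gene.

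**Figure D2:**
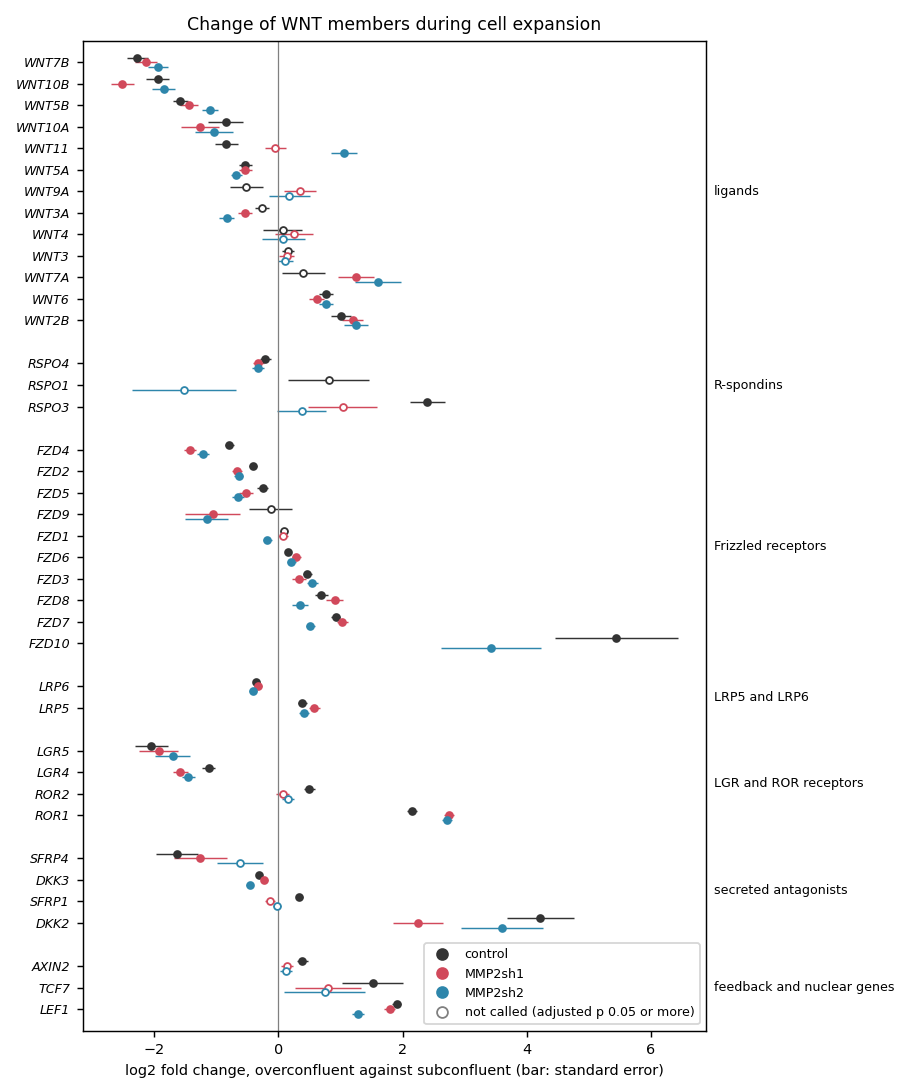
Each point is the log2 fold change from subconfluent to overconfluent cells (horizontal axis, bars give the standard error) of 1 of the 39 tested members (vertical axis, grouped by role) in control, MMP2sh1 or MMP2sh2 cells, and open points did not pass the test. WNT7B, WNT10B, LGR5 and LGR4 lie far to the left and ROR1 and LEF1 far to the right in all 3 lines, WNT11 changes side, and FZD10 and RSPO1 have no MMP2sh1 point because they were not tested there. The control point of FZD10 rests on 1 subconfluent read.

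**Figure D3:**
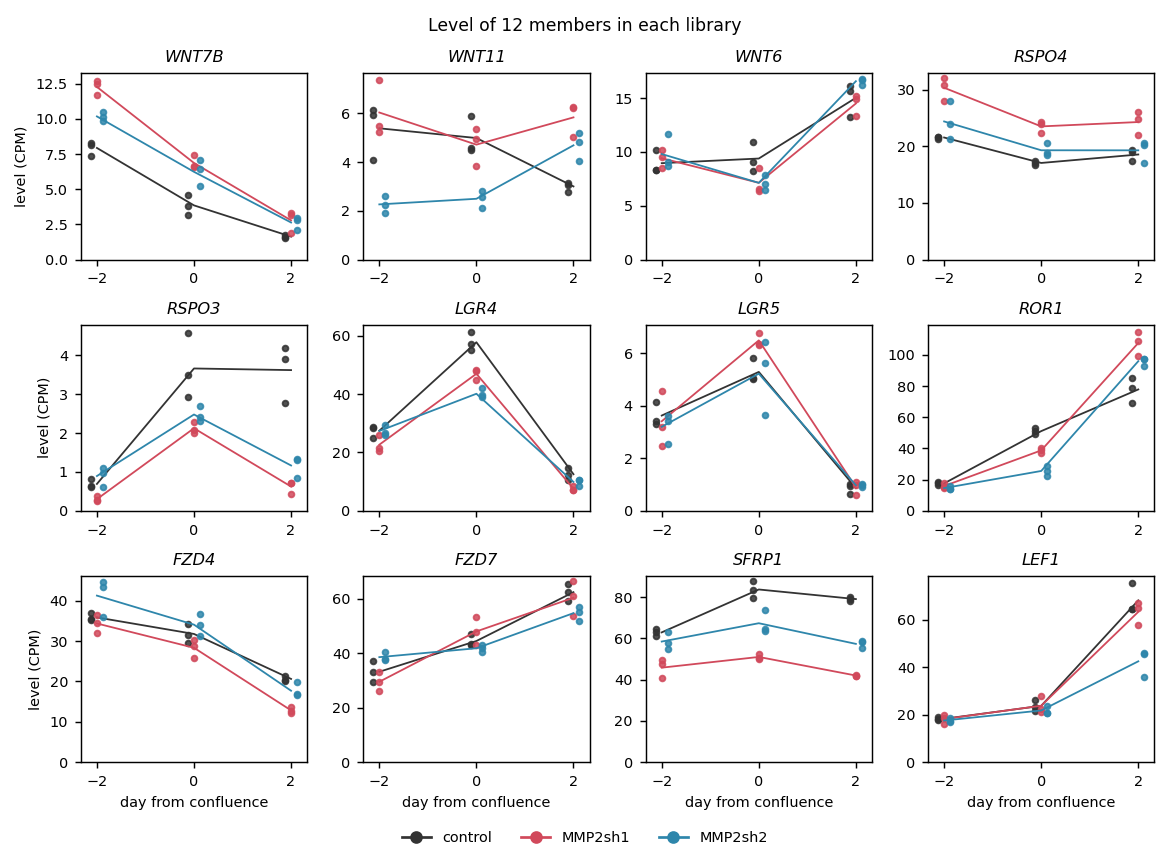
Points give the level in CPM (vertical axes, from 0) of 12 members in each of the 27 libraries against the day relative to confluence (horizontal axes, −2 subconfluent, 0 confluent, 2 overconfluent), and lines join the means of 3 libraries per line. LGR4 and LGR5 peak at day 0, ROR1, FZD7 and LEF1 climb, WNT7B declines, and SFRP1 is lowest in MMP2sh1 at each day.

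Against control at the same density, the hairpin lines differed in fewer members than the densities did. In MMP2sh1 3 members were called in subconfluent cells (2 higher, 1 lower), 10 in confluent cells (4 higher, 6 lower) and 12 in overconfluent cells (6 higher, 6 lower). Over all tested genes the called shares were 11.6% (5.42% higher, 6.14% lower), 16.8% (8.26% higher, 8.58% lower) and 14.8% (7.68% higher, 7.11% lower). In MMP2sh2 3 members were called in subconfluent cells (2 higher, 1 lower), 8 in confluent cells (1 higher, 7 lower) and 6 in overconfluent cells (2 higher, 4 lower). The shares of all genes were 11.0% (4.71% higher, 6.33% lower), 12.9% (7.07% higher, 5.81% lower) and 6.32% (2.89% higher, 3.43% lower). In each line 37 members were tested in subconfluent, 38 in confluent and 39 in overconfluent cells. The median log2 fold change of the tested members was 0.02, −0.06 and 0.01 in MMP2sh1 and 0.04, −0.11 and −0.05 in MMP2sh2, beside medians of all genes that rounded to 0.00. The 3 control groups served both hairpin lines, so the results are given side by side and not as independent evidence.

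SFRP1, which binds WNT ligands and keeps them from Frizzled, was lower in both lines. In MMP2sh1 it was at 40.6, 47.4 and 49.4 CPM when subconfluent, 50.5, 50.1 and 52.3 when confluent and 41.5, 42.5 and 41.97 when overconfluent, below every control library of the same density. The log2 fold changes were −0.46 (SE 0.072, adjusted p = 9e-05), −0.72 (SE 0.054, adjusted p = 6e-12) and −0.91 (SE 0.062, adjusted p = 7e-12). In MMP2sh2 SFRP1 was at 63.1, 57.6 and 54.7, then 73.8, 64.3 and 63.8 and then 58.1, 58.7 and 55.1 CPM. These libraries overlapped control when subconfluent (−0.11, adjusted p = 0.32) and lay below it when confluent (−0.33, adjusted p = 0.00013) and overconfluent (−0.46, adjusted p = 6.5e-07). Compared directly, MMP2sh1 was below MMP2sh2 at all 3 densities, by log2 fold changes of −0.35, −0.39 and −0.45 (adjusted p = 0.0044, 9e-06 and 4.7e-05).

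WNT7B was higher in MMP2sh1. It was at 12.4, 11.7 and 12.7 CPM when subconfluent, 7.42, 6.55 and 6.62 when confluent and 1.86, 3.301 and 3.19 when overconfluent, above every control library of the same density. It was called when subconfluent (log2 fold change 0.63, SE 0.12, adjusted p = 0.00072) and confluent (log2 fold change 0.84, SE 0.16, adjusted p = 0.00021). It was also called when overconfluent (log2 fold change 0.77, SE 0.26, adjusted p = 0.047), but WNT7B lost this call without control overconfluent replicate 1, control overconfluent replicate 2, control overconfluent replicate 3, MMP2sh1 overconfluent replicate 2 or MMP2sh1 overconfluent replicate 3 (log2 fold change 0.63 to 0.99 over the 6 refits) and it was also lost without a filter on low counts. In MMP2sh2 WNT7B was at 9.86, 10.5 and 10.2, then 5.26, 7.04 and 6.41 and then 2.83, 2.99 and 2.08 CPM, again above control at each density, but only the confluent difference was called (log2 fold change 0.68, SE 0.17, adjusted p = 0.0059). WNT7B lost this call without MMP2sh2 confluent replicate 2 (log2 fold change 0.56 to 0.82 over the 6 refits). The direct comparison of the lines did not call WNT7B at any density (adjusted p = 0.15, 0.51 and 0.9), with log2 fold changes of 0.27, 0.16 and 0.08.

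RSPO4 was higher in MMP2sh1 at each density. Its levels were 28.1, 30.8 and 32.2, then 22.4, 24.2 and 23.97 and then 26.1, 21.98 and 24.8 CPM, all above the control libraries of the same density. The log2 fold changes were 0.49, 0.46 and 0.39 (SE 0.083, 0.082 and 0.090, adjusted p = 0.00021, 0.0001 and 0.0028). In MMP2sh2 RSPO4 was at 23.9, 21.3 and 28.1, then 20.6, 18.5 and 18.8 and then 20.3, 20.6 and 17.1 CPM, and no density was called (adjusted p = 0.27, 0.26 and 0.84). The direct comparison called MMP2sh1 above MMP2sh2 at all 3 densities (0.32, 0.30 and 0.33). For subconfluent cells, RSPO4 lost this call without MMP2sh1 subconfluent replicate 2, MMP2sh1 subconfluent replicate 3, MMP2sh2 subconfluent replicate 1 or MMP2sh2 subconfluent replicate 2 (log2 fold change 0.22 to 0.42 over the 6 refits). For overconfluent cells, RSPO4 lost this call without MMP2sh1 overconfluent replicate 1, MMP2sh1 overconfluent replicate 3, MMP2sh2 overconfluent replicate 1 or MMP2sh2 overconfluent replicate 3 (log2 fold change 0.25 to 0.40 over the 6 refits).

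RSPO3 was lower in both lines after expansion. In overconfluent MMP2sh1 it was at 0.725, 0.716 and 0.431 CPM and in overconfluent MMP2sh2 at 1.31, 1.34 and 0.8502, all below the control range. Both differences were called (log2 fold change −2.54, SE 0.29, adjusted p = 1.9e-07 in MMP2sh1 and −1.63, SE 0.26, adjusted p = 1.5e-05 in MMP2sh2). In confluent cells RSPO3 was at 2.08, 1.996 and 2.29 CPM in MMP2sh1 (log2 fold change −0.79, SE 0.22, adjusted p = 0.0087) and at 2.405, 2.32 and 2.702 in MMP2sh2 (−0.58, adjusted p = 0.074). RSPO3 lost this call without control confluent replicate 1 (log2 fold change −0.93 to −0.60 over the 6 refits). When subconfluent, RSPO3 was at 0.271, 0.388 and 0.244 CPM in MMP2sh1, already below every control library. In subconfluent MMP2sh2 it was at 0.964, 1.097 and 0.623 CPM and overlapped control. Neither difference was called.

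WNT11 differed from control in a manner that depended on density and line. In MMP2sh2 it was at 2.63, 2.23 and 1.93 CPM when subconfluent and 2.54, 2.12 and 2.81 when confluent, below all control libraries (log2 fold change −1.25, SE 0.20, adjusted p = 0.00031 and −1.01, adjusted p = 0.0004). When overconfluent it was at 4.84, 4.05 and 5.17 CPM, above all control libraries (log2 fold change 0.64, SE 0.19, adjusted p = 0.027), and WNT11 lost this call without control overconfluent replicate 2, control overconfluent replicate 3, MMP2sh2 overconfluent replicate 1 or MMP2sh2 overconfluent replicate 3 (log2 fold change 0.57 to 0.74 over the 6 refits). In MMP2sh1 WNT11 was at 5.03, 6.27 and 6.204 CPM when overconfluent, also above control (log2 fold change 0.96, SE 0.18, adjusted p = 0.00023). At the lower densities MMP2sh1 overlapped control, with 5.25, 5.48 and 7.37 CPM when subconfluent and 3.84, 5.35 and 4.96 when confluent. The direct comparison called MMP2sh1 above MMP2sh2 when subconfluent (1.41) and confluent (0.92) but not when overconfluent (0.31, adjusted p = 0.29).

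LGR4 and ROR1 were lower at the confluent stage in both lines. LGR4 was at 48.1, 44.8 and 47.9 CPM in confluent MMP2sh1 (log2 fold change −0.30, SE 0.060, adjusted p = 0.00037) and 41.9, 38.8 and 39.5 in confluent MMP2sh2 (log2 fold change −0.54, SE 0.063, adjusted p = 8.7e-08), all below the control libraries. In overconfluent cells LGR4 was at 7.05, 7.01 and 8.67 CPM in MMP2sh1 (log2 fold change −0.73, SE 0.13, adjusted p = 0.00019) and 8.47, 10.7 and 10.6 in MMP2sh2 (−0.34, adjusted p = 0.099). ROR1 was at 38.9, 37.3 and 40.1 CPM in confluent MMP2sh1 (−0.40) and 29.1, 22.2 and 25.5 in confluent MMP2sh2 (−1.01), below all control libraries, and the direct comparison called MMP2sh2 the lower of the 2 lines (log2 fold change 0.61, SE 0.079, adjusted p = 3.4e-07 for MMP2sh1 over MMP2sh2).

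In overconfluent cells the order of ROR1 was reversed. It was at 99.3, 109 and 114 CPM in MMP2sh1 and 97.2, 93.2 and 97.5 in MMP2sh2, above every control library, and both were called (log2 fold change 0.47, SE 0.070, adjusted p = 1.2e-05 in MMP2sh1 and 0.30, adjusted p = 0.0015, in MMP2sh2). In MMP2sh2, ROR1 lost this call without control overconfluent replicate 3 (log2 fold change 0.22 to 0.37 over the 6 refits).

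Some receptors and nuclear genes differed in 1 line at the overconfluent stage. FZD4 was at 13.7, 12.7 and 12.2 CPM in MMP2sh1 (log2 fold change −0.69, SE 0.095, adjusted p = 3.4e-06) and at 16.8, 16.5 and 19.8 in MMP2sh2 (−0.22, adjusted p = 0.18), and the direct comparison called MMP2sh1 lower (−0.47, adjusted p = 0.0047). LEF1 was at 45.9, 45.5 and 35.9 CPM in MMP2sh2 (log2 fold change −0.68, SE 0.077, adjusted p = 1.7e-08), below all control libraries, and at 64.9, 57.8 and 67.1 in MMP2sh1 (−0.11, adjusted p = 0.35). The direct comparison called LEF1 higher in MMP2sh1 (0.57, adjusted p = 4.7e-05). WNT3A, the ligand most used to activate β-catenin in culture, was at 6.78, 6.73 and 6.38 CPM in overconfluent MMP2sh2 (log2 fold change −0.49, SE 0.13, adjusted p = 0.014) and at 9.64, 9.47 and 9.199 in MMP2sh1, and here too the lines differed directly (0.51, adjusted p = 0.011). Against control, WNT3A lost this call without control overconfluent replicate 1 (log2 fold change −0.53 to −0.43 over the 6 refits).

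The remaining calls against control were small or came from 1 density. WNT6 was lower in both confluent lines (−0.41 in MMP2sh1 and −0.41 in MMP2sh2), although in MMP2sh1 WNT6 lost this call without control confluent replicate 1, control confluent replicate 2, MMP2sh1 confluent replicate 1 or MMP2sh1 confluent replicate 2 (log2 fold change −0.54 to −0.28 over the 6 refits) and in MMP2sh2 WNT6 lost this call without control confluent replicate 1, control confluent replicate 2, MMP2sh2 confluent replicate 1 or MMP2sh2 confluent replicate 2 (log2 fold change −0.50 to −0.29 over the 6 refits). FZD2 was lower in confluent MMP2sh1 (−0.26) and MMP2sh2 (−0.21), where FZD2 lost this call without control confluent replicate 3 or MMP2sh2 confluent replicate 2 (log2 fold change −0.26 to −0.17 over the 6 refits). In subconfluent MMP2sh2, FZD2 (0.21) and DKK3 (0.17) were called higher, but FZD2 lost this call without control subconfluent replicate 1, control subconfluent replicate 2, MMP2sh2 subconfluent replicate 2 or MMP2sh2 subconfluent replicate 3 (log2 fold change 0.16 to 0.27 over the 6 refits) and DKK3 lost this call without control subconfluent replicate 1, control subconfluent replicate 2, control subconfluent replicate 3 or MMP2sh2 subconfluent replicate 2 (log2 fold change 0.15 to 0.19 over the 6 refits). The ligands WNT7A and WNT9A were called higher in overconfluent MMP2sh1 (1.07 and 1.01), and WNT3 and WNT5B in confluent MMP2sh1 (0.38 and 0.67). WNT7A lost this call without control overconfluent replicate 3 (log2 fold change 0.80 to 1.26 over the 6 refits). ROR2 (−0.44) and FZD5 (−0.30) were called lower in overconfluent MMP2sh1 and FZD3 (−0.28) in confluent MMP2sh2. FZD5 lost this call without any 1 of the 6 libraries (log2 fold change −0.33 to −0.28 over the 6 refits). That FZD5 call was lost without a filter on low counts as well. FZD3 lost this call without MMP2sh2 confluent replicate 1 (log2 fold change −0.31 to −0.26 over the 6 refits). In a fit of all 27 libraries, neither FZD3 nor FZD2 was called in confluent MMP2sh2.

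**Figure D4:**
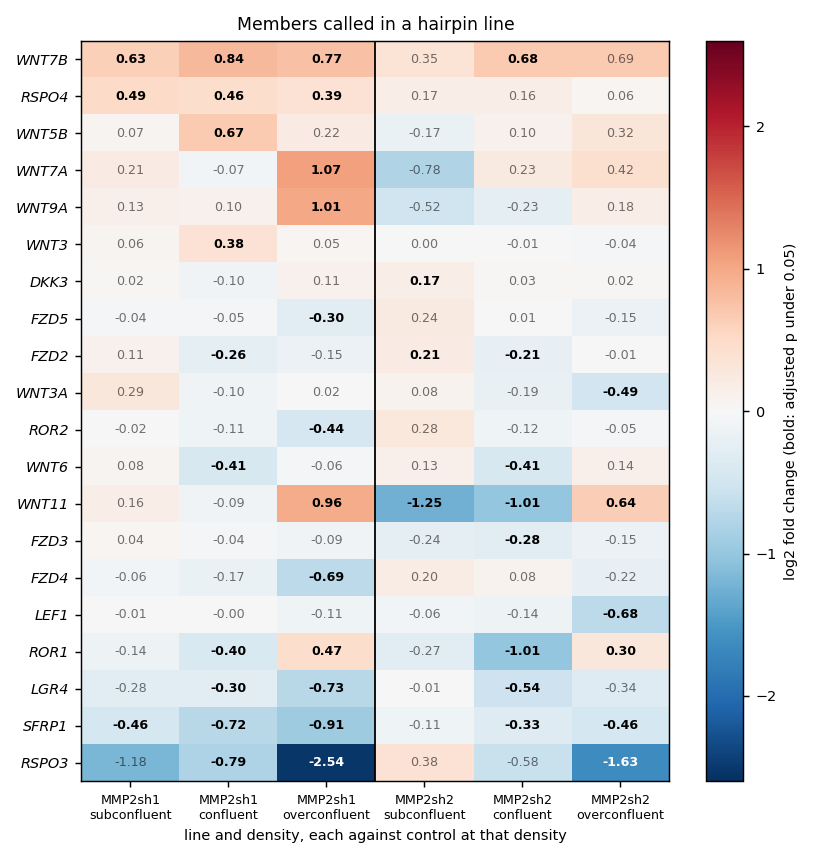
Colours and printed values give the log2 fold change against control at the same density (columns, 3 per hairpin line) of the 20 members called in at least 1 of these 6 comparisons (rows), with called values in bold. SFRP1 is blue in all columns, RSPO4 is bold in MMP2sh1 alone, WNT11 changes colour between densities, and RSPO3 has the largest value at −2.54.

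Compared directly at each density, the hairpin lines differed in 5 members when subconfluent (10.7% of all tested genes were called), 12 when confluent (18.5%) and 7 when overconfluent (7.86%). At each density, 36 to 39 members were tested. The reduction of MMP2 itself was larger in MMP2sh1 at each density, and its part in these differences was not tested.

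Whether expansion changed a member differently in a hairpin line than in control was tested with the interaction of line and density. This called 3 members for MMP2sh1 (FZD4, ROR1 and SFRP1), where 7.40% of all genes were called, and 8 for MMP2sh2 (FZD4, FZD7, LEF1, ROR1, RSPO3, SFRP1, WNT11 and WNT3A), where 4.98% were called. For each line, 36 to 39 members were tested. In both lines ROR1 rose more than in control (difference 0.61 and 0.56), FZD4 fell more (−0.62 and −0.43), and the change of SFRP1 was lower (−0.46 and −0.36). FZD7 in MMP2sh2 was at 37.5, 40.4 and 37.9 CPM when subconfluent, 40.5, 43.2 and 41.99 when confluent and 55.2, 57.1 and 52.05 when overconfluent, a smaller rise than in control (log2 fold change −0.41, SE 0.10, adjusted p = 0.014). When 1 of the 12 libraries was removed at a time, the MMP2sh2 interactions of LEF1, ROR1, RSPO3 and WNT11 and the 3 of MMP2sh1 were called in 12 of 12 refits. That of FZD7 was lost without control subconfluent replicate 1 or control overconfluent replicate 3 (−0.50 to −0.32 over the 12 refits), and that of SFRP1 without MMP2sh2 subconfluent replicate 1 (−0.40 to −0.30). FZD4 kept its MMP2sh2 call in 3 refits, those without control subconfluent replicate 2, MMP2sh2 subconfluent replicate 3 or MMP2sh2 overconfluent replicate 3 (−0.51 to −0.37). WNT3A also kept its call in 3, those without replicate 2 of subconfluent control, overconfluent control or subconfluent MMP2sh2 (−0.64 to −0.51), and lost it when low counts were not filtered.

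Other genes of the pathway were followed in lists chosen with earlier results of these data known. The lists overlap: RNF43, ZNRF3 and NOTUM count under both receptor turnover and WNT targets, and TCF7L1 under both nuclear partners and WNT targets. In control expansion, of 14 tested genes of ligand secretion and receptor turnover 10 rose and 2 fell, with a median log2 fold change of 0.70 against 0.03 for all tested genes. Of all tested genes, 56.8% were called, 28.1% higher and 28.6% lower. RNF43, a ubiquitin ligase that clears Frizzled from the membrane, was at 5.05, 4.74 and 4.09 CPM in subconfluent, 21.3, 20.1 and 19.3 in confluent and 46.8, 42.05 and 44.9 in overconfluent control cells (log2 fold change 3.26, SE 0.094, adjusted p = 1.7e-20). SOSTDC1, a secreted antagonist of BMP and WNT signals, was at 0.242, 0.474 and 0.585 CPM, then 5.09, 5.67 and 3.65 and then 22.2, 25.4 and 23.8 (log2 fold change 5.87, SE 0.18, adjusted p = 4.9e-20), and every stage lay above the one before.

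Both genes also differed between the lines. In overconfluent cells SOSTDC1 was at 10.3, 9.16 and 11.4 CPM in MMP2sh1 (log2 fold change −1.21, SE 0.10, adjusted p = 4e-10) and 13.1, 12.3 and 12.5 in MMP2sh2 (log2 fold change −0.92, SE 0.094, adjusted p = 2e-09), below all control libraries. RNF43 was lower in confluent MMP2sh1 (−0.69, adjusted p = 6.9e-07) and MMP2sh2 (−0.97, adjusted p = 6.6e-09).

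The intracellular lists moved in both directions in control expansion, in which 56.8% of all tested genes were called, 28.1% higher and 28.6% lower. Of 22 cytoplasmic genes of the β-catenin pathway, 6 rose and 7 fell (median −0.05), with β-catenin itself, CTNNB1, at 0.42 and the scaffold DVL1 at −1.24. Of 14 nuclear partners 2 rose and 2 fell (median 0.00), and of 14 planar polarity genes 3 rose and 4 fell (median −0.06). Of 13 WNT target genes 6 rose and 4 fell (median 0.16), among them the feedback inhibitor NKD1, which rose (log2 fold change 2.01, SE 0.12, adjusted p = 1.3e-13), and MYC, which fell (log2 fold change −1.66, SE 0.059, adjusted p = 1.3e-18). NKD1 was lower in overconfluent MMP2sh2 than in control (log2 fold change −0.75, SE 0.11, adjusted p = 3.3e-06).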

How the data were processed

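The deposited values are raw read counts per gene symbol in 27 libraries of poly(A) RNA. The authors used Trim Galore 0.6.0 for trimming, STAR 2.7.3a for alignment to hg19 and HTSeq 2.0.0 for counting (minimum alignment quality 10, union mode, strand not used), so counts of overlapping and antisense genes are uncertain. The annotation version is not given in the sources used here. HTSeq summary lines (16.8% to 19.1% of each total) were left out.

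Each comparison was fitted on its own 6 libraries (12 for interactions) with edgeR 4.0.16 in R 4.3.3: TMM, filterByExpr (minimum count 10), quasi-likelihood test, Benjamini-Hochberg adjustment over all tested genes, calls at adjusted p under 0.05. The standard error (SE) is the log2 fold change over the root of F. Levels are CPM with TMM factors, and CPM per kb uses the exon union of GENCODE v44lift37 on GRCh37. The fits were tested on simulated data.

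Members and lists were chosen with earlier results of these data known. A member is described by library when it was called with an absolute log2 fold change of at least 1 in control expansion, was called with 1 sign at 2 or more densities in a hairpin line, was called in an interaction, or led its class in level per length (23 members, of which FZD10 is given by summed reads). WNT5A, WNT10A, ROR2, LRP5 and AXIN2 were added after their values were seen, as relatives of these, and so were RNF43, SOSTDC1, NKD1, CTNNB1, DVL1 and MYC among the other genes. The alternatives were DESeq2 1.42.0, median-of-ratios scaling, no low-count filter, at least 10 counts in every library, a replicate block, all 27 libraries in 1 fit, and each library left out in turn.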

Additional observations from a re-analysis of the deposited data

Results flagged for a closer look

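The interaction of line and density flagged 11 results, in which the log2 fold change from subconfluent to overconfluent cells differed between a hairpin line and control (edgeR's quasi-likelihood test, Benjamini-Hochberg adjustment). In MMP2sh1 the difference was −0.62 for FZD4 (SE 0.11, adjusted p = 0.00054), which fell by 1.42 there and by 0.79 in control. It was 0.61 for ROR1 (SE 0.12, adjusted p = 0.0013), which rose by 2.75 against 2.15, and −0.46 for SFRP1 (SE 0.095, adjusted p = 0.0024), which changed by −0.13 against 0.33.

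In MMP2sh2 the same 3 genes differed from control, FZD4 by −0.43 (SE 0.12, adjusted p = 0.033), ROR1 by 0.56 (SE 0.11, adjusted p = 0.00096) and SFRP1 by −0.36 (SE 0.088, adjusted p = 0.012). FZD7 rose less than in control (−0.41, SE 0.10, adjusted p = 0.014), as did LEF1 (−0.62, SE 0.12, adjusted p = 0.0012). RSPO3, which rose by 2.40 in control, changed by 0.38 here, a difference of −2.03 (SE 0.45, adjusted p = 0.0043). WNT11 had a difference of 1.89 (SE 0.28, adjusted p = 2.6e-05), and WNT3A one of −0.58 (SE 0.16, adjusted p = 0.033). Both lines were set against the same control libraries, and each is 1 transduced line.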

How the results depend on the processing

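Of 201 calls of single members, 150 held in every fit, and no direction reversed. Calls of DKK2 and FZD10 that were not tested with at least 10 counts in every library are not among the 150, even where no fit lost them. Over 1200 refits with another tool or setting 22 lost the call and 1178 kept it, and over 1272 refits with 1 library left out 138 lost it and 1134 kept it.

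Counts of called members moved by over 1.5 times in the following cases, and the cause was not tested. For MMP2sh1 against control when subconfluent, edgeR on all 27 libraries called 5 in place of 3. For MMP2sh2 against control when subconfluent, DESeq2 called 6 and edgeR on all 27 libraries 5 in place of 3, and 1 to 3 were called with 1 library left out. MMP2sh1 against MMP2sh2 when subconfluent gave 8 with DESeq2 and 11 on all 27 libraries in place of 5, and 3 to 5 with 1 library left out. For the MMP2sh1 interaction, DESeq2 called 6, no filter 5 and all 27 libraries 6 in place of 3, and 3 to 5 were called with 1 library left out. The MMP2sh2 interaction gave 5 to 8 against 8 with 1 library left out, and 7 to 10 under the other settings. Confluent MMP2sh2 against control gave 5 to 8 against 8 with 1 library left out, and 6 to 9 under the other settings.

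Same-numbered replicates did not deviate together (in none of the 14 pairs of groups compared directly was a correlation over 0.1), so the numbers were not taken to pair samples. With the replicate number as a block, 11 members in place of 5 were called between the subconfluent hairpin lines, and for the other comparisons the count stayed within 1.5 times, 31 in control expansion as without the block. Calls lost under the block, among those named, were WNT7B and FZD5 in overconfluent MMP2sh1 and WNT6 in confluent MMP2sh2, each against control.

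With 3 libraries a group, changes can be missed, and members under 1 CPM in some groups, such as TCF7, DKK2, RSPO3 and FZD10, rest on few reads.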
